A study of Mus musculus with 38 samples.

Results

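The lipid-associated macrophage genes described here are 10 mouse genes: Trem2, Tyrobp, Apoe, Lpl, Fabp5, Spp1, Gpnmb, Cd9, Lgals3 and Itgax. They were taken by name as known markers of this macrophage state, with earlier results of these data known. Each symbol matched 1 Ensembl gene among the 55487 genes listed in the 3 deposited tables of raw read counts. Lipid-associated macrophages gather where cells die and lipid accumulates, and they resemble the disease-associated microglia of the injured brain. TREM2 is a surface receptor for lipids and lipoproteins that signals through the adaptor TYROBP and the kinase SYK. Downstream of this pair, such cells take up, bind and export lipid, for which LPL (lipoprotein lipase), FABP5 (a cytosolic fatty acid carrier) and APOE (an apolipoprotein, which carries lipid out of the cell in lipoprotein particles) stand. The remaining members mark the state: SPP1 (osteopontin, a secreted ligand of integrins and CD44), GPNMB (a glycoprotein of lysosomes and the cell surface), CD9 (a tetraspanin), LGALS3 (galectin-3, which binds damaged lysosomes) and ITGAX (the CD11c integrin subunit).

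In the GENCODE M21 annotation of mouse genome GRCm38 all 10 are protein-coding genes: Trem2 (ENSMUSG00000023992) at chr17:48346401-48354147 (plus strand), Tyrobp (ENSMUSG00000030579) at chr7:30413760-30417585 (plus strand), Apoe (ENSMUSG00000002985) at chr7:19696109-19699188 (minus strand), Lpl (ENSMUSG00000015568) at chr8:68880491-68907448 (plus strand), Fabp5 (ENSMUSG00000027533) at chr3:10012548-10016607 (plus strand), Spp1 (ENSMUSG00000029304) at chr5:104435118-104441050 (plus strand), Gpnmb (ENSMUSG00000029816) at chr6:49036546-49070929 (plus strand), Cd9 (ENSMUSG00000030342) at chr6:125460266-125494791 (minus strand), Lgals3 (ENSMUSG00000050335) at chr14:47367751-47386160 (plus strand) and Itgax (ENSMUSG00000030789) at chr7:128129547-128150657 (plus strand). Counts are summed over each gene's exons. Trem2, Tyrobp, Apoe, Gpnmb and Lgals3 share no transcript word of 75 bases with another gene. Reads of the others are uncertain to a small degree: Spp1 shares 8.55% of its words with the overlapping gene Gm42793, Cd9 7.63%, mainly with the overlapping opposite-strand gene Gm26728, Itgax 5.01% with Itgad, Fabp5 3.03% with Gm6166 and Gm14328, and Lpl 0.888%. The strand setting of the counting is not given in the sources used here, so reads from Cd9 and its antisense neighbours may not be told apart.

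The 38 libraries of RNA form 18 groups. They came from the immortalised mouse microglial line BV2, from the mouse glioma line GL261 carrying the green fluorescent protein plasmid pEGFP-N1 stably, and from primary macrophages grown from wild-type bone marrow (BMDM). The oxygen condition lasted 16 h, either 21% oxygen, called normoxia, or less than 0.1% oxygen, called hypoxia. In the co-culture experiments each cell type was kept by itself as a monoculture, or BV2 cells shared a dish with 2 GL261 cells per BV2 cell in 2% serum, and BMDM with 1 GL261 cell per BMDM in 10% serum, and the cell types were profiled apart. How they were separated is not given in the sources used here. In the panobinostat experiment BV2 cells and BMDM grew alone with the solvent dimethyl sulfoxide (DMSO) in normoxia or hypoxia, or with 10 nM panobinostat, a histone deacetylase inhibitor, in hypoxia. In this experiment and in the monocultures, BV2 cells were also in 2% serum and BMDM in 10% serum. Panobinostat in normoxia was not analysed here. Each group had 2 libraries, and the normoxic and hypoxic BMDM co-cultures had 3 each. The labels call the replicates of the BV2 and GL261 co-culture experiment biological. For the other libraries nothing in the labels says that they came from separate cultures or animals, so p-values there measure the spread between libraries only. BV2 is 1 immortalised line, and its monocultures held no count of the microglial identity gene Sall1 and 20 to 45 counts of Tmem119 per library. In bulk RNA, fewer cells of a type and less RNA per cell cannot be told apart.

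Levels are CPM, the counts of a gene relative to a fixed library total, scaled by trimmed-mean (TMM) factors unless stated, and a gene passed the test at an adjusted p under 0.05 in edgeR's quasi-likelihood test over all genes, where not named otherwise. All 10 members passed the filter on low counts in BV2 cells and BMDM. Where a library is left out of a group of 2, the lone library is assumed to vary like the other groups. Statements that libraries of compared groups did not overlap describe the values and are not a test. Groups this small often separate without a difference. Between normoxic BV2 co-culture and monoculture, 9 of the 10 members did not overlap, 5 had an unadjusted p under 0.05 in edgeR's test and 1 passed. Not passing does not show that a member was unchanged, and the share of all genes without overlap was not counted. Library totals ran from 9634700 to 27238900 counts (to 6 digits), so that 3 counts, the limit a count of 0 allows, equal 0.11 to 0.311 CPM. Of 8 hypoxia-response genes used as a check (7 measured in the DMSO-treated BV2 libraries), 7 rose in hypoxia in each of the BV2 and BMDM co-culture experiment comparisons and 7 in DMSO-treated BV2 cells. Of all genes tested, 13.3% to 35.2% were called higher in these comparisons. The check is not given for DMSO-treated BMDM, where 0.483% of 14914 genes were called in either direction. The summed plain CPM of 12 macrophage and microglia markers was 3443 to 3530.2 in normoxic BV2 monocultures, 9635 to 11031 in normoxic BMDM monocultures and 10.4 to 12.1 in normoxic GL261 monocultures. RNA of the partner cell, measured as the median share of partner-restricted genes, made up 0.76% ± 0.271 (SD, n = 2) of co-cultured BV2 libraries in normoxia and 2.22% ± 0.202 (SD, n = 2) in hypoxia. In co-cultured BMDM, measured against the GL261 monocultures of the BV2 and GL261 experiment, it was 2.43% ± 1.21 (SD, n = 3) and 3.74% ± 2.32 (SD, n = 3). The BMDM libraries of the panobinostat experiment stood apart: 8 fibroblast and endothelial markers, led by the collagen gene Col1a1 (12666 to 13202 CPM in normoxia with DMSO), summed to 14067 to 16972 CPM in normoxia with DMSO, 1673 to 9078 in hypoxia with DMSO and 6523 to 10260.3 with panobinostat, against 107 to 145 in the normoxic BMDM monocultures of the co-culture experiment.

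Lgals3, Itgax, Gpnmb and Trem2, the 4 members the results turn on most, are shown here by their start regions, because transcription factors that respond to hypoxia or to signalling bind DNA near such starts. Each RefSeq window (GRCm38.p6) covers 250 bases before and 50 bases after the start, 5′ to 3′, and capitals mark matches to 2 searched words and their reverse complements, the hypoxia-response core GCGTG and the AP-1 word TGACTCA. In Itgax the reverse-strand matches to both words overlap and form 1 run of capitals. The windows lie at chr14:47373610-47373909 on the plus strand, chr7:128129300-128129599 on the plus strand, chr6:49036268-49036567 on the plus strand and chr17:48346151-48346450 on the plus strand. The Lgals3 window lies inside the gene as GENCODE annotates it (chr14:47367751-47386160).
Lgals3: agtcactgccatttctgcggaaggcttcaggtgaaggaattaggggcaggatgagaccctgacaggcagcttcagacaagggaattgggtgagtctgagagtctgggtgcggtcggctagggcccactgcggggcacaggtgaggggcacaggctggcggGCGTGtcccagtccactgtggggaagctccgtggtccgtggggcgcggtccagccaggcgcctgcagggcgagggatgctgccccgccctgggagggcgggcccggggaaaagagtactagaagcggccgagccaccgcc
Itgax: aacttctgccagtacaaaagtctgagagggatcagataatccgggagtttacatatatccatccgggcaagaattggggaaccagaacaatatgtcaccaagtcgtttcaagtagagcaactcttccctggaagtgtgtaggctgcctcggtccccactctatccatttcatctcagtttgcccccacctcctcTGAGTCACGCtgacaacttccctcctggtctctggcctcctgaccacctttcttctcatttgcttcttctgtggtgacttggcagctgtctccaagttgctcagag
Gpnmb: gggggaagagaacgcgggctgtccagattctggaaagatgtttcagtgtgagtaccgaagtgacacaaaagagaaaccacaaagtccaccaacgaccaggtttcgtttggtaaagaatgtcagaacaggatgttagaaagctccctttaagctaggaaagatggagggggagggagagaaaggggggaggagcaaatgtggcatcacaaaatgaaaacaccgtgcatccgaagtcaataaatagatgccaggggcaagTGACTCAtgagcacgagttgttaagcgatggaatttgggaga
Trem2: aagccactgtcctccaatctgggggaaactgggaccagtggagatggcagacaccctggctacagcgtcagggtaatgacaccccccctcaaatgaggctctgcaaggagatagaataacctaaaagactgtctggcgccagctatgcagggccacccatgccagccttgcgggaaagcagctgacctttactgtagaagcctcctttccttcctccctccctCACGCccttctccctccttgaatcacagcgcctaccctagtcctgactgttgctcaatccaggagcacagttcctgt
7 of the members had a window in the table, with 10 windows in all, and Tyrobp, Lpl and Fabp5 had none. GCGTG was found in the windows of Lgals3, Itgax, Trem2 and Cd9, and TGACTCA in those of Itgax and Gpnmb. The other hypoxia core searched, ACGTG, and the E-box word CACGTG that contains it matched none of the 10 windows. Over all 32851 windows of the table, 32.4% held GCGTG, 5.2% TGACTCA, 19.6% ACGTG and 7.15% CACGTG on either strand. A match describes letters only. It is not evidence of a bound site.

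In hypoxia, BV2 cells grown alone held more mRNA of the lipid carrier Apoe and of the state markers Lgals3, Itgax, Spp1 and Gpnmb, while the receptor Trem2 and its adaptor did not pass the test. 5 of the 10 members rose (Lgals3, Apoe, Itgax, Spp1 and Gpnmb) and 2 fell (Lpl and Fabp5), beside 61.9% of 14432 tested genes called in either direction, 30.9% higher and 31.0% lower. The 7 of 10 is thus close to the share of all genes that hypoxia moved in these cells. The median log2 fold change of the members was 0.47, against 0.00 for all genes tested.

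Trem2 stood at 159 and 164 CPM in normoxic and 185 and 169 CPM in hypoxic BV2 monocultures, a log2 fold change of 0.14 (SE 0.13, adjusted p = 0.369). Its adaptor Tyrobp stood at 157 and 136 CPM in normoxia and 168 and 129.6 CPM in hypoxia, a log2 fold change of 0.02 (SE 0.13, adjusted p = 0.896). Neither passed the test, with 95% intervals of -0.13 to 0.40 and -0.26 to 0.30. Among the lipid carriers, Apoe rose from 641 and 679 to 1776 and 1624 CPM, 2.58-fold, with a log2 fold change of 1.36 (SE 0.15, adjusted p = 8.17e-07). Both hypoxic libraries lay far above both normoxic ones. Lpl moved the other way, from 2998 and 3508 to 2569 and 2127 CPM, a log2 fold change of -0.47 (SE 0.15, adjusted p = 0.0127). Fabp5 fell from 315 and 273 to 261 and 212 CPM, a log2 fold change of -0.31 (SE 0.13, adjusted p = 0.0421). The groups did not overlap for either gene, but both calls were close to the threshold. Without normoxic library 2 or hypoxic library 2, Lpl gave -0.35 (adjusted p = 0.0991) and -0.32 (adjusted p = 0.141). Without normoxic library 1 or hypoxic library 2, Fabp5 gave -0.21 (adjusted p = 0.285) and -0.15 (adjusted p = 0.412), and DESeq2 gave it -0.28 (adjusted p = 0.0529).

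Of the markers of the state, osteopontin mRNA (Spp1) rose from 2489.7 and 2582 to 4923 and 4506 CPM, a log2 fold change of 0.89 (SE 0.13, adjusted p = 1.68e-05). Gpnmb rose from 3417 and 3386 to 5662 and 6130.2 CPM, a log2 fold change of 0.79 (SE 0.12, adjusted p = 3.69e-05). For both, every hypoxic library was above every normoxic one. Galectin-3 mRNA (Lgals3) had the largest change of the 10 members here: 453 and 350.5 CPM in normoxia and 1646 and 1320.3 CPM in hypoxia, a 3.69-fold rise and a log2 fold change of 1.88 (SE 0.15, adjusted p = 1.94e-08). Itgax was the member with the lowest CPM, at 25.5 and 18.6 in normoxia and 51.0 and 38.7 in hypoxia, a log2 fold change of 1.02 (SE 0.25, adjusted p = 0.00242). The tetraspanin Cd9 differed little, from 497 and 510.1 to 557 and 557 CPM (0.15, SE 0.11, adjusted p = 0.272), and did not pass the test.

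**Figure D1:**
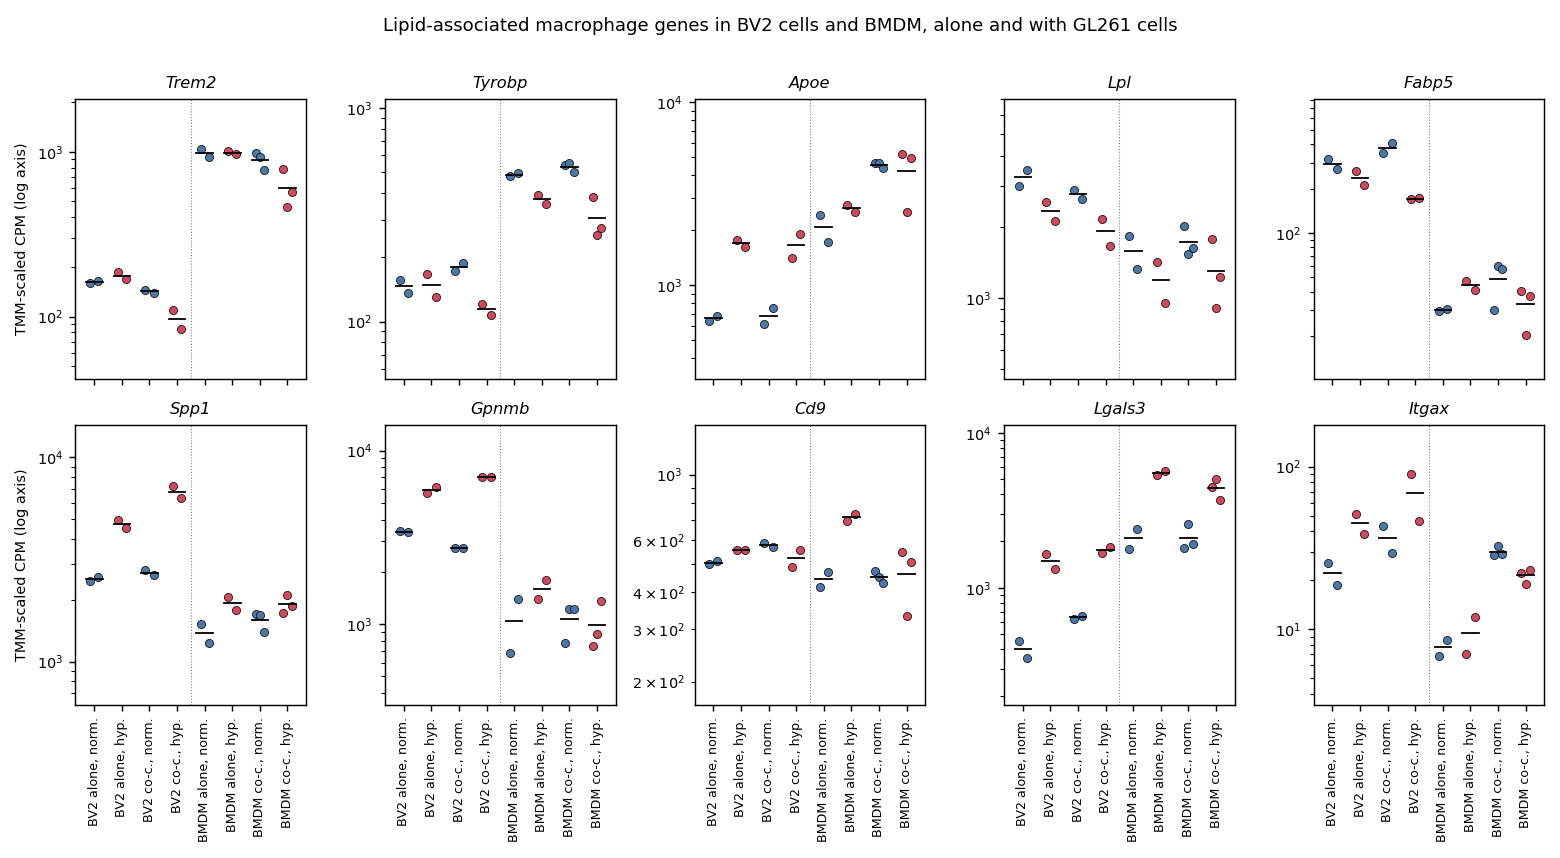
TMM-scaled CPM on a log axis for each member in every BV2 and BMDM library of the co-culture experiments, grown alone or in co-culture (co-c.); blue points are normoxia (norm.), red points hypoxia (hyp.), and bars are group means of 2 or 3 libraries. BV2 and BMDM were scaled separately, so levels are to be read within a cell type; Lgals3 is higher in every hypoxic library than in every normoxic library of the same culture, and Trem2 is lowest in BV2 cells from hypoxic co-culture.

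In BV2 cells taken from co-culture with GL261 cells, 9 of the 10 members passed the test between hypoxia and normoxia, beside 67.3% of all genes tested. The same 5 members rose as in monoculture, with log2 fold changes of 1.44 for Lgals3, 1.35 for Gpnmb, 1.31 for Spp1, 1.29 for Apoe and 0.92 for Itgax, and 4 fell (background 35.2% higher and 32.1% lower). Here the receptor and its adaptor were among those that fell. Trem2 went from 145 and 139 CPM in normoxic to 110.0 and 83.5 CPM in hypoxic co-culture, a log2 fold change of -0.55 (SE 0.13, adjusted p = 0.00118). Tyrobp went from 173 and 188 to 121 and 108 CPM, a log2 fold change of -0.66 (SE 0.13, adjusted p = 0.000386). Neither pair of groups overlapped. Fabp5 dropped from 351 and 404 to 169 and 172 CPM, with a log2 fold change of -1.14 (SE 0.13, adjusted p = 9.4e-07), and Lpl from 2874 and 2641 to 2171 and 1666 CPM (-0.52, SE 0.15, adjusted p = 0.00611). Gpnmb reached 7026 and 7036 CPM in the hypoxic co-culture libraries, from 2747 and 2757 CPM in the normoxic ones. Spp1 reached 7213 and 6295 CPM, from 2803 and 2650.2 CPM. Cd9 again did not pass (-0.14, SE 0.11, adjusted p = 0.259). The Itgax call rested on hypoxic library 1, at 90.5 CPM against 46.5 CPM in library 2: without it the log2 fold change was 0.29 (adjusted p = 0.269). DESeq2 gave Itgax 0.93 (adjusted p = 0.0504).

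**Figure D2:**
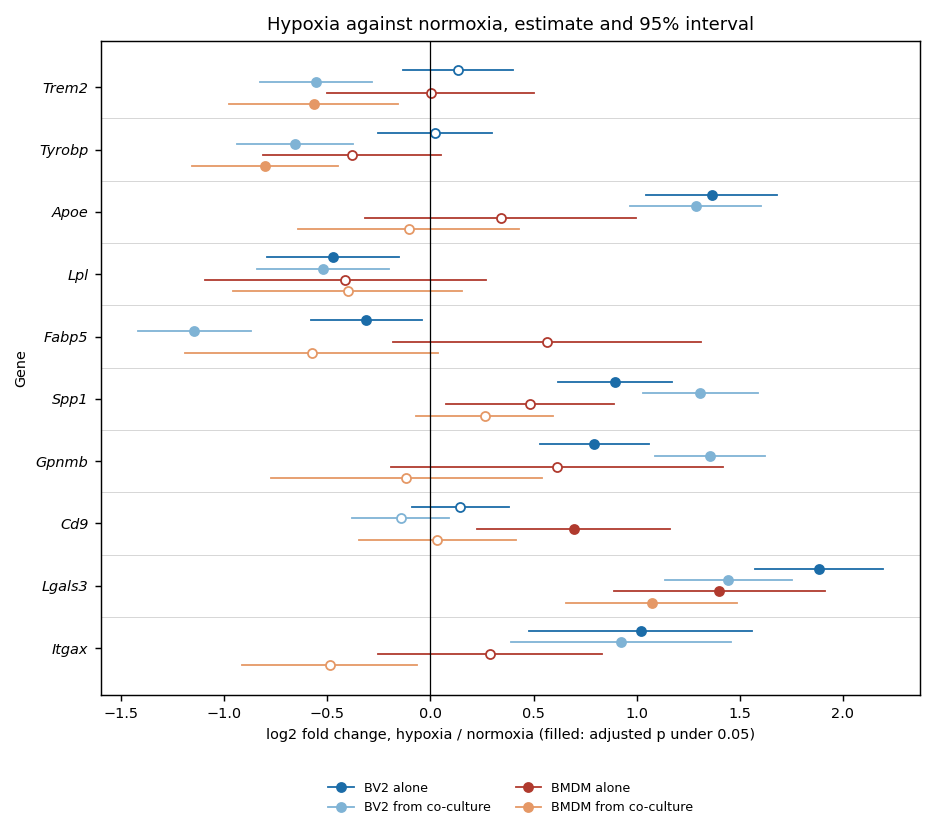
Log2 fold change of hypoxia against normoxia for each member with its 95% interval, in BV2 cells and BMDM alone or from co-culture; filled points have an adjusted p under 0.05. Lgals3 is the one member filled in all 4 comparisons, Spp1, Gpnmb, Apoe and Itgax are filled in both BV2 comparisons and in neither BMDM comparison, and Trem2 and Tyrobp are filled below 0 in both co-culture comparisons.

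Whether the hypoxia effect itself differed between co-culture and monoculture was tested as an interaction. It passed for 1 member, Fabp5, where the co-culture minus monoculture difference in log2 effect was -0.83 (SE 0.18, adjusted p = 0.0286), beside 2.19% of all genes, 1.16% higher and 1.03% lower. The Fabp5 difference no longer passed without normoxic monoculture library 2, -0.73 (adjusted p = 0.133), hypoxic monoculture library 1, -0.78 (adjusted p = 0.0633), or normoxic co-culture library 2, -0.71 (adjusted p = 0.12). Trem2, with a difference of -0.69 (SE 0.18, adjusted p = 0.0553), and Tyrobp, with -0.68 (SE 0.19, adjusted p = 0.0651), fell just short. Both passed without hypoxic monoculture library 2 (-0.85 at adjusted p = 0.0276, and -0.95 at adjusted p = 0.0131) or hypoxic co-culture library 1 (-1.003 at adjusted p = 0.00566, and -0.87 at adjusted p = 0.0307), and with DESeq2, adjusted p = 0.0115 and 0.0163. Gpnmb pointed the other way (0.56, SE 0.17, adjusted p = 0.0956) and did not pass with edgeR, while DESeq2 gave 0.54 (adjusted p = 0.00566). The remaining 6 members had adjusted p-values of 0.222 or more.

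Few members passed between co-culture and monoculture in BV2 cells. In normoxia Lgals3 alone passed, from 453 and 350.5 CPM in monoculture to 632 and 660.3 CPM in co-culture, a log2 fold change of 0.69 (SE 0.14, adjusted p = 0.00618), beside 14.9% of all genes called, 5.77% higher and 9.14% lower. Both co-culture libraries were above both monoculture ones, but without normoxic monoculture library 2 the value was 0.50 (adjusted p = 0.105). Itgax (0.71, SE 0.26, adjusted p = 0.075) and Fabp5 (0.36, SE 0.13, adjusted p = 0.0658) were higher without passing, and Itgax passed without normoxic co-culture library 2, 0.95 (adjusted p = 0.041). In hypoxia 3 members passed, beside 15.7% of all genes, 8.13% higher and 7.57% lower. Trem2 fell from 185 and 169 to 110.0 and 83.5 CPM, a log2 fold change of -0.87 (SE 0.13, adjusted p = 0.000199), and Fabp5 from 261 and 212 to 169 and 172 CPM (-0.47, SE 0.13, adjusted p = 0.0186). Spp1 rose from 4923 and 4506 to 7213 and 6295 CPM (0.52, SE 0.13, adjusted p = 0.0112). No libraries overlapped between the groups for these 3 genes. Tyrobp was lower without passing (-0.38, SE 0.13, adjusted p = 0.0646).

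The fall of Trem2 in hypoxic co-culture passed whichever library was left out, whereas Fabp5 did not pass without hypoxic monoculture library 1, -0.39 (adjusted p = 0.0901). Spp1 did not pass without hypoxic monoculture library 2, 0.39 (adjusted p = 0.109), or hypoxic co-culture library 1, 0.35 (adjusted p = 0.126). Leaving out the same 2 libraries made Tyrobp pass, at -0.62 (adjusted p = 0.00863) and -0.54 (adjusted p = 0.0274). Lpl passed without hypoxic co-culture library 1, -0.57 (adjusted p = 0.0296), and Itgax without hypoxic co-culture library 2, 0.96 (adjusted p = 0.00701). The summed macrophage markers were 3460.0 to 3634 CPM in hypoxic co-culture and 4587 to 4610.0 CPM in hypoxic monoculture, and the 12 glioma and neural markers 54.7 to 66.4 and 0.571 to 1.62 CPM. The part of these shifts in the Trem2 and Fabp5 falls was not tested. Partner RNA at the measured share would add 0.119 CPM of Spp1 and 13.8 CPM of Lgals3 to the hypoxic BV2 co-cultures. The hypoxia and co-culture comparisons share libraries and are not independent of each other.

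**Figure D3:**
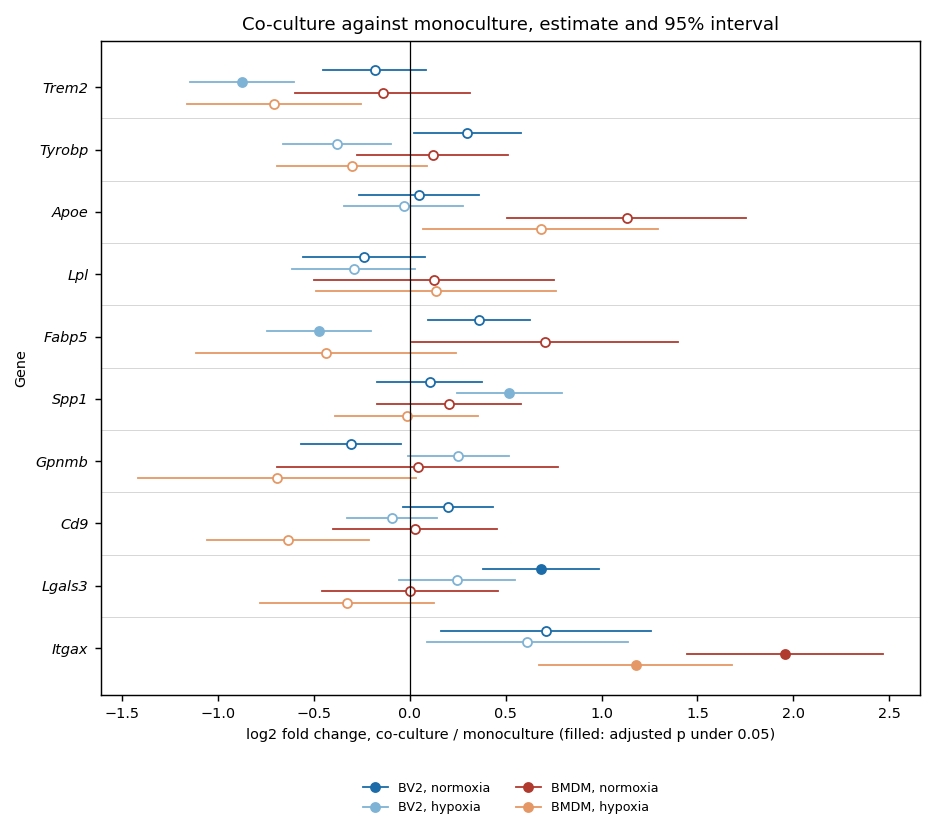
Log2 fold change of co-culture against monoculture for each member with its 95% interval, in BV2 cells and BMDM at both oxygen levels; filled points have an adjusted p under 0.05. Itgax is filled in BMDM at both oxygen levels, Lgals3 in normoxic BV2 cells, and Trem2, Fabp5 and Spp1 in hypoxic BV2 cells.

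In BMDM, fewer members passed between hypoxia and normoxia. In monoculture Lgals3 and Cd9 rose and no member fell, beside 23.9% of 14806 tested genes called (13.3% higher). Lgals3 went from 1772 and 2394 CPM to 5361 and 5643 CPM, 2.64-fold, with a log2 fold change of 1.40 (SE 0.23, adjusted p = 0.00215). Cd9 went from 418 and 468 to 699 and 736 CPM, a log2 fold change of 0.70 (SE 0.21, adjusted p = 0.0361). Neither gene's groups overlapped. The Cd9 call did not pass without any 1 of the 4 libraries, normoxic 1 and 2 and hypoxic 1 and 2, with log2 fold changes of 0.55 (adjusted p = 0.244), 0.70 (adjusted p = 0.138), 0.71 (adjusted p = 0.124) and 0.64 (adjusted p = 0.172). Trem2 did not pass, at 1047 and 929 CPM in normoxia and 1007 and 970.1 CPM in hypoxia, with a 95% interval of -0.50 to 0.50 for its log2 fold change. Apoe (0.34, SE 0.30, adjusted p = 0.447), Spp1 (0.48, SE 0.19, adjusted p = 0.0821) and Gpnmb (0.61, SE 0.37, adjusted p = 0.252), which rose in BV2 cells, were higher here without passing. BMDM and BV2 co-culture libraries stand in separate tables, so this difference between the cell types was not tested. The spread between BMDM libraries was larger, with a common coefficient of biological variation of 0.222 against 0.0958 in BV2 cells.

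In BMDM from co-culture, hypoxia raised Lgals3 and lowered Tyrobp and Trem2, beside 34.8% of all genes called, 17.5% higher and 17.3% lower. Lgals3 was 1795, 2562 and 1903 CPM in the normoxic and 4455, 5045 and 3668 CPM in the hypoxic libraries, a log2 fold change of 1.07 (SE 0.19, adjusted p = 0.00142). Tyrobp fell from 539, 552 and 501 to 385, 254 and 274 CPM, a log2 fold change of -0.80 (SE 0.16, adjusted p = 0.00301). In both genes the 3 hypoxic libraries lay on 1 side of the 3 normoxic ones. Trem2 fell from 983, 932 and 775 to 784, 463 and 569 CPM, a log2 fold change of -0.57 (SE 0.19, adjusted p = 0.0357), and hypoxic library 1 overlapped the normoxic group. Its call was lost without normoxic library 1, -0.52 (adjusted p = 0.0862), normoxic library 2, -0.55 (adjusted p = 0.0694), hypoxic library 2, -0.42 (adjusted p = 0.081), or hypoxic library 3, -0.52 (adjusted p = 0.0878). Fabp5 passed without normoxic library 1, -0.85 (adjusted p = 0.0217), and Lpl without hypoxic library 1, -0.69 (adjusted p = 0.0405). With the replicate number as a block, which treats same-numbered libraries as pairs, Lpl also passed as lower, -0.44 (adjusted p = 0.0327). Partner RNA differed between the libraries of the 2 groups as given above, the macrophage markers summed to 8824 to 10621 CPM in normoxia and 7021 to 9480.3 CPM in hypoxia, and the part of either in the Trem2 and Tyrobp falls was not tested. No member passed the interaction of hypoxia and co-culture in BMDM, and no gene of the 14806 did: edgeR gave 636 genes and 3 members (Fabp5, Cd9 and Itgax) an unadjusted p under 0.05, and DESeq2 called 9 genes.

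Co-culture with glioma cells raised Itgax, the CD11c subunit gene, in BMDM at both oxygen levels, and no other member passed. In normoxia Itgax was 6.84 and 8.63 CPM in monoculture and 28.5, 32.6 and 28.8 CPM in co-culture, a 3.88-fold difference (log2 fold change 1.96, SE 0.23, adjusted p = 0.00482), beside 1.64% of all genes called, 1.57% higher and 0.0675% lower. In hypoxia it was 7.06 and 11.8 CPM and 22.2, 18.9 and 23.0 CPM, a log2 fold change of 1.18 (SE 0.23, adjusted p = 0.0165), beside 7.11% of all genes called, 4.06% higher and 3.05% lower. All 6 co-culture libraries lay above all 4 monoculture libraries. GL261 monocultures held 0 to 2 counts of Itgax per library, so partner RNA at the measured share would add 0.00194 CPM in normoxia. CD11c also marks dendritic cells, and 8 dendritic cell markers summed to 5.65 to 6.88 CPM in normoxic monoculture and 13.5 to 37.4 CPM in normoxic co-culture, and to 5.25 to 6.58 and 17.2 to 55.4 CPM in hypoxia. Most of these sums was Fscn1, at 12.6 to 36.5 CPM in normoxic co-culture, while Xcr1 and Cd209a were at 0 in every one of these 10 libraries and Zbtb46 reached 0.949 CPM at most. Of the 8 markers, 2 had a mean of at least 1 CPM in hypoxic co-culture, against 1 in hypoxic monoculture and 1 in each normoxic group. In hypoxic co-culture the marker besides Fscn1 was Ccr7, Clec9a or Siglech. GL261 monocultures held 252 to 272 CPM of Fscn1 in normoxia and 143 to 191 CPM in hypoxia. Partner RNA made up 1.29% to 3.70% of the normoxic and 1.72% to 6.28% of the hypoxic BMDM co-culture libraries. Its part in the Fscn1 values was not tested. The part of these markers in the Itgax rise was not tested. Without normoxic library 1 or 2 the log2 fold change was 1.79 (adjusted p = 0.107) and 2.11 (adjusted p = 0.0765), and without hypoxic library 1 or 2 0.86 (adjusted p = 0.14) and 1.60 (adjusted p = 0.0603). A fit of the 2 hypoxic groups alone gave 1.21 (adjusted p = 0.0602). ITGAX pairs with the beta-2 chain ITGB2, whose gene did not pass in normoxic BMDM co-culture (log2 fold change -0.19, SE 0.30, adjusted p = 0.848).

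Apoe was higher in co-cultured BMDM without passing the test. It was 2431 and 1725 CPM in normoxic monoculture and 4659, 4626 and 4370.5 CPM in normoxic co-culture, a log2 fold change of 1.13 (SE 0.28, adjusted p = 0.0789). These groups did not overlap, and Apoe passed with DESeq2, 1.12 (adjusted p = 0.00217), and in a fit of the 2 groups alone, 1.14 (adjusted p = 0.0312). In hypoxia it was 2748 and 2517 CPM and 5204, 2505 and 4977 CPM, with co-culture library 2 just below both monoculture libraries. Without that library the log2 fold change was 0.95 (adjusted p = 0.0192), against 0.68 (SE 0.28, adjusted p = 0.161) with all libraries. Trem2 (-0.71, SE 0.21, adjusted p = 0.0637) and Cd9 (-0.63, SE 0.19, adjusted p = 0.0714) were lower in hypoxic co-culture without passing, and both passed without hypoxic co-culture library 1, -0.92 (adjusted p = 0.00925) and -0.76 (adjusted p = 0.0288).

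In the panobinostat experiment, hypoxia with DMSO again raised Lgals3 in BV2 cells and lowered Lpl, and these 2 of 10 members passed beside 37.5% of 13294 tested genes, 17.2% higher and 20.2% lower. Lgals3 went from 475 and 435 CPM to 2577 and 1763 CPM, a 4.77-fold rise (log2 fold change 2.25, SE 0.27, adjusted p = 0.000433). Lpl went from 3094 and 2035 CPM to 1021 and 712 CPM, a log2 fold change of -1.57 (SE 0.35, adjusted p = 0.00676). Neither gene's groups overlapped. Apoe was higher at 2115 and 1759 CPM, from 1354 and 1046 CPM, and fell just short (0.69, SE 0.25, adjusted p = 0.0537). It passed with DESeq2, 0.72 (adjusted p = 0.00766), and without normoxic library 1, 0.92 (adjusted p = 0.0155). Spp1, Gpnmb and Itgax, which rose with hypoxia in the BV2 monocultures without DMSO, gave 0.29 (SE 0.40, adjusted p = 0.603), 0.34 (SE 0.34, adjusted p = 0.464) and -0.08 (SE 0.53, adjusted p = 0.918). Library 1 was higher than library 2 for these 3 genes in both DMSO groups. For Spp1, for example, the values were 4437 and 2267 CPM in normoxia and 5120.2 and 3066 CPM in hypoxia, so the groups overlapped.

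Panobinostat in hypoxia lowered Trem2 and Lgals3 in BV2 cells, and these 2 of 10 members passed beside 14.6% of all genes (7.39% lower). Trem2 was 165 and 111 CPM with DMSO and 67.0 and 43.2 CPM with panobinostat, a 2.51-fold fall (log2 fold change -1.33, SE 0.33, adjusted p = 0.026). Lgals3 was 2577 and 1763 CPM and 1185 and 1006 CPM, a log2 fold change of -0.99 (SE 0.26, adjusted p = 0.0357). In both genes the 2 treated libraries lay below the 2 DMSO libraries, and the treated libraries lay above both normoxic DMSO libraries for Lgals3. Neither call held without DMSO library 1, with Trem2 at -1.03 (adjusted p = 0.0765) and Lgals3 at -0.70 (adjusted p = 0.189). The same was so without panobinostat library 1, -1.68 (adjusted p = 0.0575) and -1.11 (adjusted p = 0.199), and library 2, -1.05 (adjusted p = 0.168) and -0.87 (adjusted p = 0.266).

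The adaptor Tyrobp did not pass: it was 152 and 114 CPM with DMSO and 135 and 103 CPM with panobinostat, with a 95% interval of -0.67 to 0.35 for the log2 fold change. Spp1 pointed upward, from 5120.2 and 3066 to 10004 and 6573 CPM (1.02, SE 0.41, adjusted p = 0.117), and Apoe downward, from 2115 and 1759 to 1228 and 1239 CPM (-0.65, SE 0.25, adjusted p = 0.108). Neither passed with edgeR, the groups did not overlap, and DESeq2 called both, 1.01 (adjusted p = 0.0359) and -0.66 (adjusted p = 0.0314). The summed macrophage markers were also lower with panobinostat, 2939 to 3258 CPM against 4047 to 4406 CPM with DMSO, and Csf1r, the CSF1 receptor gene among them, fell by 1.75 (SE 0.25, adjusted p = 0.00362) on the log2 scale. The part of this shift in the Trem2 fall was not tested.

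**Figure D4:**
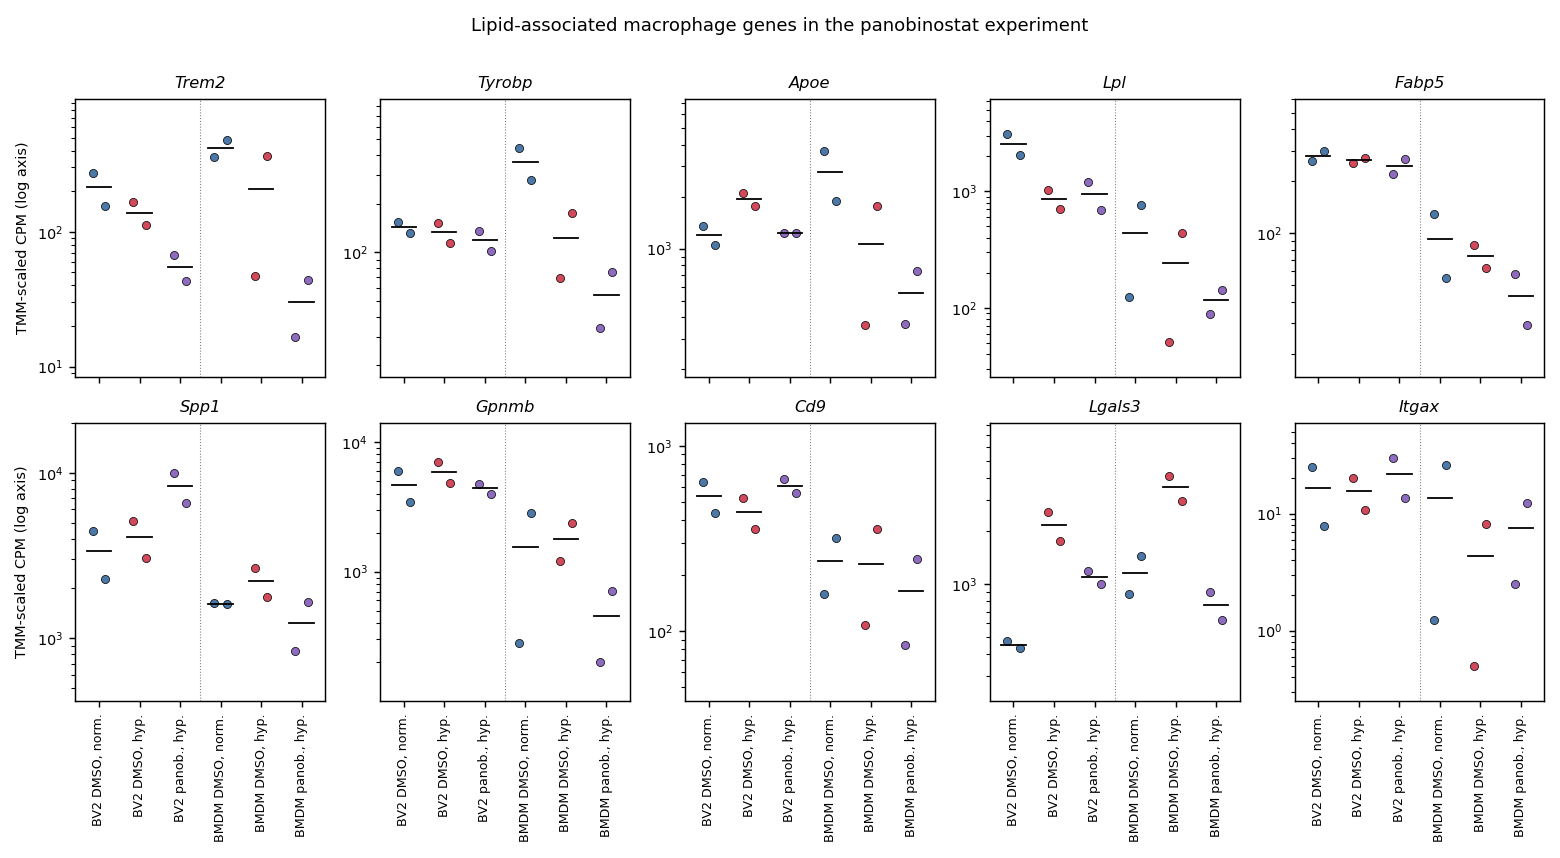
TMM-scaled CPM on a log axis for each member in every BV2 and BMDM library with DMSO or panobinostat (panob.), in normoxia (norm.) or hypoxia (hyp.); blue points are normoxia with DMSO, red hypoxia with DMSO and purple hypoxia with panobinostat, bars are means of 2 libraries, and BV2 and BMDM were scaled separately. For Lgals3, the hypoxic DMSO libraries lie above the normoxic and the panobinostat libraries in both cell types, and BMDM libraries of 1 group lie far apart for Gpnmb, Lpl and Itgax.

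No member passed in the BMDM of this experiment, where replicate libraries differed more than in any other fit (common coefficient of biological variation 0.381) and the fibroblast markers given above were high. Between normoxia and hypoxia with DMSO, 0.483% of 14914 genes passed, and 2 members had an unadjusted p under 0.05. For panobinostat, edgeR called 0 genes (3868 at an unadjusted p under 0.05, 2 of them members), while DESeq2 called 2221 genes, 2 of them members. Leaving out any 1 of the libraries compared left both counts of members at 0. The members themselves show the spread: in normoxia with DMSO, Gpnmb was 283 and 2826 CPM, Lpl 124 and 759.6 CPM and Itgax 1.24 and 25.8 CPM in libraries 1 and 2. Lgals3 was 883 and 1441 CPM in normoxia and 4118 and 2968 CPM in hypoxia with DMSO, a log2 fold change of 1.61 (SE 0.43, adjusted p = 0.106). With panobinostat it was 907 and 626 CPM, a log2 fold change of -2.21 (SE 0.44, adjusted p = 0.0653) against hypoxic DMSO. Neither difference passed with edgeR, the libraries did not overlap in either, and DESeq2 called both, 1.60 (adjusted p = 0.00305) and -2.20 (adjusted p = 1.64e-05). Trem2 was 47.3 and 365 CPM with DMSO and 16.7 and 44.0 CPM with panobinostat in hypoxia (-2.76 (SE 0.98, adjusted p = 0.151) with edgeR and -2.73 (adjusted p = 0.0186) with DESeq2). The summed macrophage markers were also lower, going from 7191 to 10544 CPM in normoxia to 3841 to 4984 CPM in hypoxia and 952 to 2305 CPM with panobinostat, and their part in the member values was not tested.

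The 2 cell types could be compared within this table. BV2 cells were in 2% serum and BMDM in 10% serum, so cell type and serum cannot be told apart here. Neither the DMSO hypoxia effect nor the panobinostat effect differed between BV2 cells and BMDM past the threshold for any member, beside 0.664% and 0.0251% of 15955 genes. The nearest were Apoe for hypoxia, with a BV2 minus BMDM difference of 2.15 (SE 0.89, adjusted p = 0.229), and Spp1 for panobinostat, with 1.85 (SE 0.68, adjusted p = 0.371). Apoe passed without BMDM hypoxic DMSO library 2, 3.69 (adjusted p = 0.0158). For Trem2 the panobinostat difference had a 95% interval of -0.98 to 3.80, which is too wide to tell like from unlike. In the level at normoxia with DMSO, 3 members differed, beside 44.2% of all genes. In a joint scaling, Fabp5 was higher in BV2 cells, 264 ± 19.8 against 97.7 ± 54.5 CPM (SD, n = 2 each), a log2 fold change of 1.43 (SE 0.41, adjusted p = 0.0182). Tyrobp (-1.51, SE 0.47, adjusted p = 0.0254) and Lgals3 (-1.54, SE 0.36, adjusted p = 0.00701) were lower in BV2 cells. None of the 3 calls held through every left-out library. Fabp5 failed without BV2 library 2, 1.37 (adjusted p = 0.0718), or BMDM library 2, 0.95 (adjusted p = 0.102). Lgals3 failed without BV2 library 2, -1.43 (adjusted p = 0.0524). Tyrobp failed without BV2 library 1, -1.62 (adjusted p = 0.0907), BV2 library 2, -1.36 (adjusted p = 0.147), or BMDM library 1, -1.17 (adjusted p = 0.135). Without BMDM library 2, Lpl (4.21, adjusted p = 0.0195) and Gpnmb (3.88, adjusted p = 0.00739) passed as higher in BV2 cells. Fibroblast markers were near 26.3 to 62.6 CPM in these BV2 libraries, far below the BMDM libraries, and their part in these differences was not tested.

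The glioma line set the background for the co-cultures and split the members into those near 0 counts in it and those it expresses. GL261 monocultures held 0 and 1 counts of Trem2 in the normoxic and 0 and 0 in the hypoxic libraries, and the same for Tyrobp. Itgax had 2 and 1 counts in the normoxic and 1 and 0 in the hypoxic libraries, and Lpl 0 and 12 in the normoxic and 0 and 10 in the hypoxic ones. Trem2, Tyrobp and Itgax were thus within the 3 counts that a count of 0 allows, Lpl exceeded it in library 2 of each group, and the filter on low counts left Itgax out of the GL261 fit. Cd9, Gpnmb and Lgals3 were instead expressed in both lines. In a joint scaling of the normoxic monocultures, Cd9 was 503 ± 10.3 CPM in BV2 cells and 558 ± 88.7 CPM in GL261 cells (SD, n = 2 each) and did not differ past the threshold (-0.15, SE 0.13, adjusted p = 0.313). Gpnmb was 3396 ± 13.8 and 509.8 ± 65.5 CPM, a log2 difference of 2.74 (SE 0.14, adjusted p = 2.69e-12). Lgals3 was 401 ± 71.6 and 266 ± 129.9 CPM with overlapping libraries (0.59, SE 0.24, adjusted p = 0.0315), and its call was lost without GL261 library 2, 0.17 (adjusted p = 0.471), or BV2 library 1, 0.38 (adjusted p = 0.244). In all, 9 of 10 members passed as higher in BV2 cells, beside 33.8% of 16882 genes.

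Hypoxia moved the shared members differently in the 2 lines. In GL261 monocultures Lgals3 rose from 389.7 and 189 to 679 and 566 CPM (1.10, SE 0.28, adjusted p = 0.00712), while Cd9 fell from 675 and 537 to 275 and 236 CPM (-1.24, SE 0.15, adjusted p = 9.73e-05). Fabp5 (-1.28, SE 0.21, adjusted p = 0.000597) and Spp1 (-1.16, SE 0.37, adjusted p = 0.0255) also fell, so that 4 of the 9 members tested passed, beside 44.6% of 15189 genes. The Spp1 call was lost without normoxic library 1, -0.75 (adjusted p = 0.222), or hypoxic library 2, -0.75 (adjusted p = 0.133), and Gpnmb passed without normoxic library 2, 0.47 (adjusted p = 0.0393). The hypoxia effect in monoculture was higher in BV2 than in GL261 cells for 6 of 10 members, beside 37.4% of all genes called and 18.7% higher. The differences on the log2 scale were 2.14 (SE 0.40, adjusted p = 0.000358) for Spp1, 1.49 (SE 0.19, adjusted p = 6.45e-06) for Cd9, 1.17 (SE 0.26, adjusted p = 0.00166) for Apoe, 1.07 (SE 0.23, adjusted p = 0.0012) for Fabp5, 0.88 (SE 0.33, adjusted p = 0.046) for Lgals3 and 0.60 (SE 0.19, adjusted p = 0.0171) for Gpnmb. In that fit the median difference of all genes was 0.15, against which the members' values stand. The Lgals3 and Gpnmb differences depended on single libraries. Without GL261 normoxic library 1 that of Lgals3 was 0.21 (adjusted p = 0.652), and it also failed without GL261 hypoxic library 2 (0.64, adjusted p = 0.18), BV2 normoxic library 2 (0.62, adjusted p = 0.237) and BV2 hypoxic library 1 (0.72, adjusted p = 0.154). Without GL261 normoxic library 2 that of Gpnmb was 0.36 (adjusted p = 0.173), and it failed likewise without GL261 hypoxic library 1 (0.49, adjusted p = 0.0761), BV2 normoxic library 2 (0.51, adjusted p = 0.0898) and BV2 hypoxic library 2 (0.53, adjusted p = 0.0587).

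In GL261 cells from co-culture with BV2 cells, myeloid members appeared at low levels and Gpnmb rose at both oxygen levels. BV2 RNA made up 0.773% ± 0.202 (SD, n = 2) of these libraries in normoxia and 0.237% ± 0.0266 (SD, n = 2) in hypoxia. At that share, plain CPM of 1.26 for Trem2, 1.14 for Tyrobp and 25.4 for Lpl would come from BV2 cells in normoxia. The measured means were 0.855, 1.43 and 18.8 CPM. Tyrobp and Lpl passed the test in normoxia and Lpl in hypoxia, beside 0.514% of all genes called in normoxia (0.323% higher) and 1.39% in hypoxia (0.889% higher). For Gpnmb the same share would bring 26.5 CPM in normoxia and 13.6 CPM in hypoxia, while its plain mean went from 575 to 1008 CPM and from 682 to 1553 CPM. On the TMM scale Gpnmb was 504 and 603 CPM in normoxic monoculture and 999 and 1014 CPM in co-culture, a log2 fold change of 0.86 (SE 0.15, adjusted p = 0.0283). In hypoxia it was 655 and 706 CPM and 1529.6 and 1703 CPM, a log2 fold change of 1.25 (SE 0.15, adjusted p = 0.00248). All co-culture libraries lay above the monoculture ones at both oxygen levels. The part of BV2 RNA in these differences was not tested. The normoxic Gpnmb call was lost without any 1 of its 4 libraries, with log2 fold changes of 0.74 (adjusted p = 0.142) and 1.01 (adjusted p = 0.0919) without monoculture library 1 or 2 and 0.87 (adjusted p = 0.295) and 0.84 (adjusted p = 0.228) without co-culture library 1 or 2. In hypoxia it held without each library in turn, and a fit of the 2 hypoxic groups alone gave 1.23 (adjusted p = 0.0523).

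Of the other members called between co-cultured and monocultured GL261 cells, Lpl in normoxia was called without co-culture library 2 and not without monoculture library 1 (adjusted p = 0.0534), monoculture library 2 (adjusted p = 0.055) or co-culture library 1 (adjusted p = 0.0678), and Tyrobp in normoxia not without any 1 of its 4 libraries (adjusted p from 0.137 to 0.215). Lpl in hypoxia failed without co-culture library 1 (adjusted p = 0.0511). Without hypoxic monoculture library 1, Apoe (-1.25, adjusted p = 0.0135) and Spp1 (2.27, adjusted p = 0.024) passed, as did Spp1 without hypoxic co-culture library 2 (2.01, adjusted p = 0.0252). Between hypoxic and normoxic co-culture 7 of the 9 members tested passed, beside 52.4% of all genes, 26.8% higher and 25.6% lower. Lgals3 (1.44, SE 0.28, adjusted p = 0.00112) and Gpnmb (0.68, SE 0.15, adjusted p = 0.00214) rose, and Fabp5 (-1.29, SE 0.21, adjusted p = 0.000322), Cd9 (-1.14, SE 0.15, adjusted p = 0.000105) and Apoe (-0.72, SE 0.23, adjusted p = 0.0189) fell. Tyrobp and Lpl fell as well, from 23 and 22 to 7 and 6 counts and from 321 and 273 to 94 and 75 counts, alongside the lower share of BV2 RNA in hypoxia, whose part was not tested. Apoe did not pass without normoxic library 1 (-0.54, adjusted p = 0.153) or hypoxic library 1 (-0.58, adjusted p = 0.109). Tyrobp did not pass without any 1 of the 4 libraries (adjusted p from 0.0686 to 0.117), and Lpl not without normoxic library 1 (adjusted p = 0.0728) or hypoxic library 2 (adjusted p = 0.0521). Spp1 passed as lower without normoxic library 2 (-1.15, adjusted p = 0.0357) or hypoxic library 1 (-1.29, adjusted p = 0.0199).

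**Figure D5:**
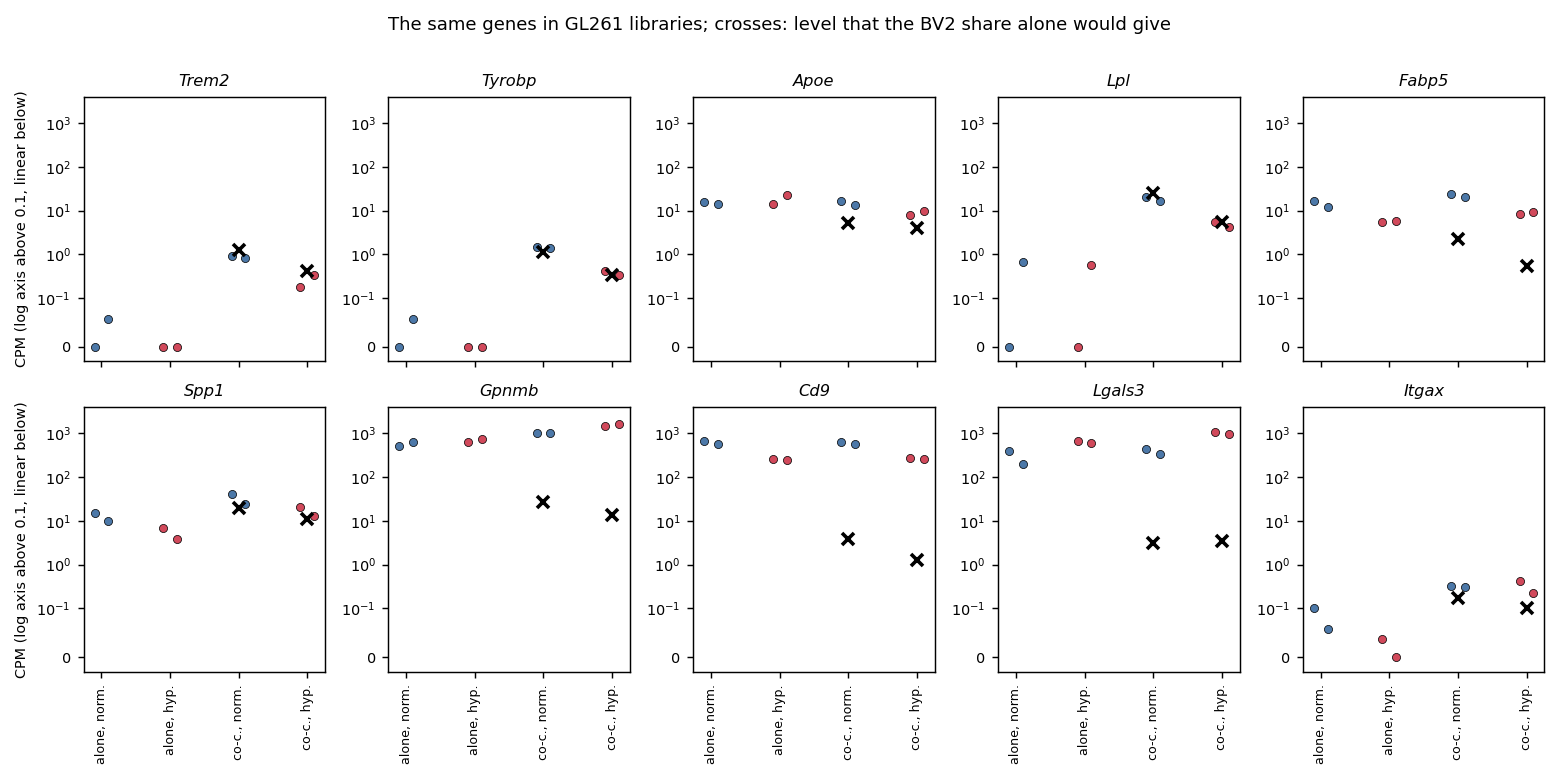
Plain CPM of each member in every GL261 library, alone or from co-culture with BV2 cells (co-c.), in normoxia (norm., blue) or hypoxia (hyp., red), on an axis that is logarithmic above 0.1 and linear below. Crosses mark the CPM that the measured share of BV2 RNA would bring by itself; Trem2, Tyrobp and Lpl lie at or near their crosses, and Gpnmb, Cd9 and Lgals3 lie far above theirs.

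Genes that work with the members were followed as lists in the same fits, described by their counts and medians beside the 61.9% of all genes called in hypoxic BV2 monocultures. Of 25 further lipid-associated and disease-associated macrophage genes, 11 rose and 1 fell in these cells, with a median log2 fold change of 0.31. They included Mmp12, the macrophage elastase gene, at 6.44 (SE 0.68, adjusted p = 4.91e-07), the inhibitory receptor gene Lilrb4a at 2.42 (SE 0.19, adjusted p = 2.63e-08), and Plin2, which coats lipid droplets, at 1.98 (SE 0.12, adjusted p = 1e-09). In BMDM monocultures 7 of the same 25 rose and 1 fell, against 23.9% of all genes. Of 16 measured TREM2 and TYROBP signalling genes, 9 rose and 5 fell in BV2 monocultures. Adam17, a protease that sheds TREM2 from the cell surface, rose (0.89, SE 0.12, adjusted p = 1.18e-05), Adam10, which encodes another such protease, fell (-0.34, SE 0.13, adjusted p = 0.0308), and the kinase gene Syk rose slightly (0.31, SE 0.13, adjusted p = 0.0435).

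In BV2 cells from hypoxic co-culture, where Trem2 fell, members of the TREM2 and TYROBP signalling list fell too. The list holds kinases, adaptors and a phosphatase below the receptor, and also the shedding proteases and related surface proteins such as Trem1 and the Ms4a genes. Of 16 measured, 8 fell and 1 rose between hypoxic co-culture and monoculture, with a median log2 fold change of -0.43, beside 7.57% of all genes lower and a median of 0.00 for all genes. The macrophage markers summed to 3460.0 to 3634 CPM in hypoxic co-culture against 4587 to 4610.0 CPM in hypoxic monoculture, and the glioma and neural markers to 54.7 to 66.4 against 0.571 to 1.62 CPM, and their part in these falls was not tested. Inpp5d, which encodes the phosphatase SHIP1, fell by 0.81 (SE 0.12, adjusted p = 0.000251), and the kinase genes Btk and Pik3cd by 0.81 (SE 0.11, adjusted p = 8.82e-05) and 0.80 (SE 0.11, adjusted p = 0.000127) on the log2 scale. Syk changed by -0.70 (SE 0.13, adjusted p = 0.00122). In hypoxic BMDM, 4 of 18 fell with co-culture and 0 rose, beside 3.05% lower among all genes, among them Plcg2 (-0.92, SE 0.15, adjusted p = 0.0092) and Inpp5d (-0.77, SE 0.20, adjusted p = 0.0402). The macrophage markers there summed to 9686 to 10191 CPM in monoculture and 7021 to 9480.3 CPM in co-culture, with a share of partner RNA of 1.72% to 6.28% in the co-culture libraries, and their part was not tested. Of 10 homeostatic microglia genes measured in BV2 cells, 4 fell and 0 rose between hypoxic co-culture and monoculture. P2ry12, a purinergic receptor that resting microglia use to sense injury, changed by -1.21 (SE 0.25, adjusted p = 0.00323). Between hypoxia and normoxia in BV2 co-culture it changed by -1.61 (SE 0.24, adjusted p = 2.46e-05).

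Around Apoe, 10 of 16 lipoprotein, LXR and PPAR genes rose and 3 fell in hypoxic BV2 monocultures, with a median log2 fold change of 0.90. Abca1, the transporter that loads APOE with cholesterol, rose by 1.49 (SE 0.18, adjusted p = 1.86e-06) on the log2 scale, and Lrp1, an APOE receptor gene, by 1.32 (SE 0.14, adjusted p = 4.16e-07). Nr1h3, which encodes the LXR-alpha receptor that drives both Apoe and Abca1, fell by 0.61 (SE 0.22, adjusted p = 0.0254) in BV2 monocultures and by 1.51 (SE 0.39, adjusted p = 0.0174) in BMDM monocultures. Abca1 rose by 1.30 (SE 0.33, adjusted p = 0.0168) in the latter. In hypoxic BV2 co-culture against monoculture, where Apoe did not pass, 6 of 16 of these genes fell and 1 rose, beside 7.57% of all genes lower and 8.13% higher, Abca1 among those that fell (-0.94, SE 0.17, adjusted p = 0.00145).

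Around Lpl and Fabp5, 9 of 18 lipase partners and fatty acid genes rose and 3 fell in hypoxic BV2 monocultures, while both members fell. Sel1l and Lmf1 encode proteins of the endoplasmic reticulum that lipoprotein lipase needs for its maturation and release. Sel1l rose by 2.64 (SE 0.20, adjusted p = 1.9e-08) in BV2 and 1.74 (SE 0.28, adjusted p = 0.00175) in BMDM monocultures, and Lmf1 by 1.51 (SE 0.20, adjusted p = 0.000592) in the latter. Hilpda, which inhibits triglyceride breakdown in lipid droplets, rose by 3.42 (SE 0.15, adjusted p = 7.29e-11) in BV2 and by 5.26 (SE 0.59, adjusted p = 0.000253) in BMDM monocultures. In DMSO-treated BV2 cells 5 of 16 rose and 2 fell with hypoxia, close to the 37.5% of all genes called there. Around Spp1, Gpnmb and Itgax, 6 of 11 receptors and partners rose and 3 fell in BV2 monocultures, among them the osteopontin receptor chains Itgb3 (2.70, SE 0.50, adjusted p = 0.000213) and Itgav (1.46, SE 0.16, adjusted p = 6.76e-07) and the GPNMB partner Sdc4 (1.40, SE 0.12, adjusted p = 6.17e-08). In BMDM monocultures Itgav fell (-0.89, SE 0.19, adjusted p = 0.00743), Sdc4 rose (1.49, SE 0.18, adjusted p = 0.000355), and 2 of 12 rose and 4 fell in all, beside 23.9% of all genes called. Cd44, another osteopontin receptor gene, fell in BV2 monocultures (-0.42, SE 0.16, adjusted p = 0.0263), and Itgb2 fell in BV2 cells from hypoxic co-culture against normoxic co-culture (-0.80, SE 0.13, adjusted p = 5.46e-05).

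Of 14 other galectins and tetraspanins, 6 rose and 3 fell in hypoxic BV2 monocultures, with a median log2 fold change of -0.03. Lgals8, another galectin of damaged lysosomes, rose by 1.19 (SE 0.12, adjusted p = 2.7e-07). Of 19 regulators of the programme, 13 rose and 3 fell. Mitf, whose product drives Gpnmb and other lysosomal genes, rose by 0.63 (SE 0.12, adjusted p = 0.000192), its relative Tfeb fell by 0.50 (SE 0.14, adjusted p = 0.00546), and Bhlhe40, a hypoxia-induced repressor, rose by 2.72 (SE 0.12, adjusted p = 5.7e-11). In BMDM monocultures Bhlhe40 rose by 3.14 (SE 0.25, adjusted p = 2.37e-05) and Tfeb fell by 0.69 (SE 0.22, adjusted p = 0.0405), while Mitf gave 0.36 (SE 0.20, adjusted p = 0.229) and did not pass. With panobinostat in hypoxic BV2 cells, Spi1, the gene of the myeloid factor PU.1, changed by -1.08 (SE 0.22, adjusted p = 0.0135), and the CD11c partner gene Itgb2 by -1.01 (SE 0.20, adjusted p = 0.0119). Syk changed by -0.91 (SE 0.20, adjusted p = 0.0176) and Cd36, a fatty acid uptake receptor gene, by 3.64 (SE 0.29, adjusted p = 0.000448). Among the 16 signalling genes measured there, 4 fell and 1 rose, beside 7.39% lower and 7.21% higher among all genes.

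Over the 14 BV2 and BMDM groups, likeness was the Pearson correlation of mean log2 CPM. Among 9408 genes with a mean of at least 10 CPM, those most alike in pattern to each of 4 members were sought. For Trem2 they were Arhgap9 (Pearson r = 0.98) and Plp2 (Pearson r = 0.98), for Apoe Pstpip1 (Pearson r = 0.94) and Ssh3 (Pearson r = 0.91), for Spp1 1700017B05Rik (Pearson r = 0.96) and Phf20l1 (Pearson r = 0.95) and for Gpnmb Slc38a2 (Pearson r = 0.98) and Washc2 (Pearson r = 0.97). These correlations describe 14 points that fall into 2 cell types and 3 separately scaled tables, with no test. Over the 6 comparisons of hypoxia with normoxia in BV2 cells and BMDM, Lgals3 had a positive log2 fold change in all 6 and passed in 5, the exception being the DMSO-treated BMDM. Tyrobp and Trem2 rose past the threshold in none and fell in the 2 co-culture comparisons.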

How the data were processed

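Polyadenylated RNA of cells fixed in glyoxal was sequenced in 38 libraries. Raw counts of reads for each Ensembl gene, as deposited by the authors in 3 tables that list 55487 genes, were the starting point. Per the submitters' processing notes, Trimmomatic 0.36, STAR 2.6, SAMtools, HTSeq 0.9.1 and deepTools were used, with Picard 2.17.1 in the BV2 and GL261 co-culture experiment, and the genome build was mm10. The counting settings and annotation are not given in the sources used here. Here, counts were filtered with edgeR's filterByExpr (at least 10 counts, 15 in total), scaled by TMM factors and tested with edgeR 4.0.16 (quasi-likelihood F test, R 4.3.3), with Benjamini-Hochberg adjustment over all genes tested and a threshold of 0.05. A fit was made per cell type and table, with all its groups, and 2 joint fits compared cell types within a table, giving 23 comparisons. Tables were never tested against each other.

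Depth was 9634700 to 27238900 counts per library, and intervals over libraries cover their spread. The members and lists were chosen with earlier results of these data known. All members are named. Of each list at most 4 genes per comparison were named, those past the threshold with the largest change and no overlap between libraries, plus a few genes set by name. Lists are described by counts and medians. Same-numbered libraries of the BMDM co-cultures deviated together over oxygen levels (r = 0.606, 0.33 and 0.407 for titles' numbers 1 to 3). The labels do not say what a number marks, so a pairing is not established. The main tests held no block. The partner share is the median, over genes of at least 20 CPM and at least 100 times higher in the partner's monocultures, of a library's plain CPM relative to the partner's monoculture. For BMDM the partner's monocultures were the GL261 libraries of the BV2 and GL261 co-culture experiment, a separate experiment. The alternatives were DESeq2 1.42.0, other scalings and filters, the replicate block, fits of the compared groups alone, partner-high genes left out, and each library left out. The tests were checked on simulated counts, in which a small share of genes was changed and the spread followed the fitted trend. In the data many more genes were called, 61.9% in BV2 and 23.9% in BMDM monocultures with hypoxia. Recovery in the real tests may therefore differ. Of 2-fold hypoxia changes, 68% were recovered in BV2 and 31.5% in BMDM monocultures. The share was 43% in DMSO-treated BV2 cells, 0.5% in DMSO-treated BMDM and 0% for the BV2 minus BMDM hypoxia effect. Of 4-fold changes, 95%, 76%, 91%, 42.5% and 21.5% were recovered, in the same order. Up to 7.53% of calls were false. Members that did not pass in DMSO-treated BMDM or in that BV2 minus BMDM comparison may thus have changed. Start regions come from a RefSeq table of GRCm38.p6, and gene models from GENCODE M21.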

Additional observations from a re-analysis of the deposited data

Results flagged for a closer look

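The effect of hypoxia differed between groups, by edgeR's interaction test with Benjamini-Hochberg adjustment, for 7 values of members. In BV2 cells the log2 effect of hypoxia on Fabp5 was lower in co-culture than in monoculture by a difference of -0.83 (SE 0.18, adjusted p = 0.0286). Both hypoxic co-culture libraries had the lowest Fabp5 CPM of the 8 BV2 libraries. Between the monocultures of the 2 lines, the BV2 minus GL261 difference in the log2 effect of hypoxia was 2.14 (SE 0.40, adjusted p = 0.000358) for Spp1 and 1.49 (SE 0.19, adjusted p = 6.45e-06) for Cd9. It was 1.17 (SE 0.26, adjusted p = 0.00166) for Apoe and 1.07 (SE 0.23, adjusted p = 0.0012) for Fabp5. For Lgals3 it was 0.88 (SE 0.33, adjusted p = 0.046) and for Gpnmb 0.60 (SE 0.19, adjusted p = 0.0171). Spp1 rose in BV2 cells and fell in GL261 cells, Cd9 fell in GL261 cells and did not pass in BV2 cells, and Lgals3 rose in both. The libraries on which the Fabp5, Lgals3 and Gpnmb differences depend are named with those results above.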

How the results depend on the processing

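Values are counts of members past the threshold of an adjusted p under 0.05, beside the main counts of 1 for BV2 co-culture in normoxia, 3 for BV2 co-culture in hypoxia, 1 for BV2 interaction, 2 for BMDM monoculture hypoxia, 3 for BMDM co-culture hypoxia, 1 for BMDM co-culture in normoxia, 1 for BMDM co-culture in hypoxia, 0 for BMDM interaction, 7 for GL261 co-culture hypoxia, 3 for GL261 co-culture in normoxia, 2 for GL261 co-culture in hypoxia, 2 for BV2 DMSO hypoxia, 2 for BV2 panobinostat, 0 for BMDM DMSO hypoxia, 0 for BMDM panobinostat, 0 for the BV2 minus BMDM hypoxia effect, 0 for the BV2 minus BMDM panobinostat effect and 3 for BV2 against BMDM levels. Brackets after each alternative count give the genes called among all genes, by the main test and then by the alternative, since these often moved as well. With the DESeq2 Wald test, the count became 3 for BV2 co-culture in normoxia (2152, 1914), 4 for BV2 interaction (316, 688), 2 for BMDM co-culture in normoxia (243, 634), 3 for BMDM co-culture in hypoxia (1053, 1733), 1 for GL261 co-culture in normoxia (78, 162), 4 for BV2 panobinostat (1941, 2246), 1 for BMDM DMSO hypoxia (72, 2247) and 2 for BMDM panobinostat (0, 2221). With library totals in place of TMM factors, the count became 2 for BV2 co-culture in normoxia (2152, 1814) and 3 for BV2 interaction (316, 339). DESeq2 size factors within edgeR moved no count beyond 1.5 times. With no filter beyond 1 count, the count became 4 for BV2 co-culture in normoxia (2152, 2519), 6 for BV2 co-culture in hypoxia (2266, 3183), 5 for BV2 interaction (316, 981), 5 for BMDM co-culture hypoxia (5154, 5504), 3 for BMDM co-culture in normoxia (243, 1062), 5 for BMDM co-culture in hypoxia (1053, 2141), 1 for BMDM interaction (0, 128), 5 for GL261 co-culture in normoxia (78, 361), 6 for GL261 co-culture in hypoxia (211, 737), 5 for BMDM DMSO hypoxia (72, 3259), 4 for BMDM panobinostat (0, 2867), 2 for the BV2 minus BMDM hypoxia effect (106, 1372), 1 for the BV2 minus BMDM panobinostat effect (4, 613) and 9 for BV2 against BMDM levels (7054, 7304). With genes of a mean of at least 5 CPM, the count became 2 for BV2 co-culture in normoxia (2152, 1245), 3 for BV2 interaction (316, 362) and 1 for GL261 co-culture in normoxia (78, 11). With only the groups compared in the fit, the count became 4 for BV2 co-culture in normoxia (2152, 2493), 5 for BMDM monoculture hypoxia (3542, 6289), 2 for BMDM co-culture in normoxia (243, 335), 0 for BMDM co-culture in hypoxia (1053, 231) and 0 for GL261 co-culture in hypoxia (211, 20). With partner-high genes left out, the count became 2 for GL261 co-culture hypoxia (7965, 7334), 0 for GL261 co-culture in normoxia (78, 13) and 0 for GL261 co-culture in hypoxia (211, 173). Partner-high genes are those at least 4 times higher in the partner's monoculture. In GL261 cells they include the called members Tyrobp, Lpl and Gpnmb, and for GL261 co-culture hypoxia also Fabp5 and Apoe. These members were thus not counted, so the lower counts follow from the setting and test nothing about them.

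No member that passed the test in either fit had its direction reversed under any alternative run. Of the values of single members under alternatives, 2569 kept their side of the threshold, 137 passed newly and 92 no longer passed. Leaving out 1 library at a time gave counts of 5 to 7 for BV2 monoculture hypoxia (7), 8 to 9 for BV2 co-culture hypoxia (9), 0 to 2 for BV2 co-culture in normoxia (1), 2 to 4 for BV2 co-culture in hypoxia (3), 0 to 3 for BV2 interaction (1), 1 to 1 for BMDM monoculture hypoxia (2), 2 to 4 for BMDM co-culture hypoxia (3), 0 to 1 for BMDM co-culture in normoxia (1), 0 to 3 for BMDM co-culture in hypoxia (1), 3 to 5 for GL261 monoculture hypoxia (4), 4 to 7 for GL261 co-culture hypoxia (7), 0 to 1 for GL261 co-culture in normoxia (3), 1 to 4 for GL261 co-culture in hypoxia (2), 2 to 3 for BV2 DMSO hypoxia (2), 0 to 2 for BV2 panobinostat (2), 0 to 1 for the BV2 minus BMDM hypoxia effect (0), 0 to 4 for BV2 against BMDM levels (3), 8 to 9 for BV2 against GL261 levels (9) and 4 to 6 for the BV2 minus GL261 hypoxia effect (6), with the main count in brackets, and 0 throughout for BMDM interaction, BMDM DMSO hypoxia, BMDM panobinostat and the BV2 minus BMDM panobinostat effect. Where these counts moved, the cause was not tested.

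Same-numbered libraries of co-cultured BMDM deviated together over hypoxia and normoxia, though the labels do not say that a number marks a pair. There the block added Lpl and changed no other call. In the other comparisons the libraries share a number and 2 pairs do not show a pairing: same-numbered libraries correlated at 0.458 in BV2 monocultures over oxygen, -0.017 between normoxic BV2 cultures, 0.52 for BV2 panobinostat and 0.686 for BMDM panobinostat. With the replicate number as a block, the count became 2 for BV2 co-culture in normoxia (2152, 2259), 5 for BV2 co-culture in hypoxia (2266, 2431), 3 for BV2 interaction (316, 467), 2 for BMDM co-culture in normoxia (243, 432), 2 for BMDM co-culture in hypoxia (1053, 1058), 5 for GL261 co-culture in normoxia (78, 226), 6 for GL261 co-culture in hypoxia (211, 654), 4 for BV2 DMSO hypoxia (4980, 6511), 4 for BV2 panobinostat (1941, 4025), 1 for BMDM panobinostat (0, 2044) and 7 for BV2 against BMDM levels (7054, 7624).

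Library totals in place of TMM factors moved the median log2 fold change of all genes by over 0.1 in several comparisons, from 0.03 to -0.21 for BMDM monoculture hypoxia, -0.03 to -0.16 for BV2 DMSO hypoxia and -0.03 to 0.26 for BMDM panobinostat, where DESeq2 size factors called 34 genes higher and 32 lower against 0. The genes called higher and lower then went from 1967 and 1575 to 1283 and 2958 for BMDM monoculture hypoxia, and from 958 and 983 to 1007 and 554 for BV2 panobinostat. They went from 601 and 452 to 597 and 164 for BMDM co-culture in hypoxia and from 2590 and 2564 to 2141 and 3269 for BMDM co-culture hypoxia. They went from 833 and 1319 to 984 and 830 for BV2 co-culture in normoxia and from 167 and 149 to 99 and 240 for the BV2 interaction. For GL261 co-culture in hypoxia they went from 135 and 76 to 111 and 98, for BV2 against BMDM levels from 2733 and 4321 to 3730 and 3585, and for the BV2 minus BMDM hypoxia effect from 73 and 33 to 25 and 20. With 2 libraries in most groups, differences of about the size of the spread between libraries were not detectable, most of all in the BMDM of the panobinostat experiment.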
